A study of Danio rerio with 11 samples.

Results

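The lens crystallins are the 57 genes, of 30243 in the files, whose zebrafish symbol begins with cryaa, cryab, cryba, crybb, crygm, crygn or crygs. They comprise 3 alpha genes, 7 beta A genes, 6 beta B genes, 35 gamma M genes, 2 gamma N genes and 4 gamma S genes. They were described in whole TG(fli1:EGFP) zebrafish embryos, whose blood vessels carry a green reporter, at 48 hours after fertilisation. The groups were 5 wild-type (WT) libraries and 6 libraries from aldh3a1 knockout embryos (aldh3a1_KO), and both shared the reporter line, E3 medium and age. The knockout allele is not given in the sources used here. The medium was used with or without PTU, which suppresses pigment, and the labels do not say which samples received it, how many embryos made a sample or whether replicates came from separate clutches. The p-values therefore measure the spread between these libraries, which may be technical.

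Crystallins are the proteins that fill the fibre cells of the vertebrate lens and give it transparency and refractive power. The alpha crystallins belong to the small heat shock proteins and act as chaperones. The beta and gamma crystallins share a fold of Greek key motifs and serve as structural proteins, the betas as oligomers and the gammas mostly as monomers. Gamma M crystallins are methionine-rich forms of aquatic vertebrates, whose lenses are dense and spherical, gamma S is the form conserved across vertebrates, and gamma N is structurally intermediate between the beta and gamma families.

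Library totals, in units of 1e6 estimated counts, ran from 18.1 to 19.97 in WT and from 9.22 to 17.2 in aldh3a1_KO. The 13 mitochondrially encoded genes took 4.63 to 5.62% of counts in WT, 5.01 to 12.1% in aldh3a1_KO 2, 3 and 4, and 19.8 to 25.9% in aldh3a1_KO 1, 5 and 6. The targeted gene, aldh3a1, was at 1.34, 1.35, 1.18, 1.42 and 1.96 TPM (a level scaled for transcript length and library depth) in WT and at 0.834, 0.642, 1.297, 1.07, 0.854 and 0.342 TPM in aldh3a1_KO, with overlapping ranges (log2 fold change -0.62 ± 0.27 SE, edgeR adjusted p = 0.0621). A transcript was thus counted in every library labelled aldh3a1_KO. Markers of lens, retina, neurons, muscle, skin, blood, liver and notochord were all present, with 0 of the matched markers at 0.

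Transcripts of the beta, gamma M and gamma N crystallins, and of the alpha crystallin gene cryaa, were lower in aldh3a1_KO embryos. Summed over all 57 genes, crystallin TPM was 15845, 13877, 10416, 9054 and 27545 in WT 1 to 5. It was 456, 1891, 2490, 1883, 382 and 339 in aldh3a1_KO 1 to 6. Every WT library lay above every aldh3a1_KO library, the lowest WT sum being 3.64 times the highest aldh3a1_KO sum. The crystallin share of all counts was 0.905% ± 0.417 (SD, n = 5) in WT and 0.0752% ± 0.0528 (SD, n = 6) in aldh3a1_KO. In RNA from whole embryos, fewer lens cells and less crystallin RNA per lens cell cannot be told apart.

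The spread within a genotype was large too. The highest WT sum was 3.04 times the lowest, and the highest aldh3a1_KO sum 7.33 times the lowest. The aldh3a1_KO libraries fell into a higher set (2, 3 and 4) and a lower set (1, 5 and 6), and the lower set is the one with the highest mitochondrial shares. The part of the mitochondrial share in the crystallin levels was not tested. Without aldh3a1_KO 1, 5 and 6 the difference of mean log2 summed TMM-scaled CPM (counts scaled to library size) was -2.80, against -3.70 with all libraries.

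**Figure D1:**
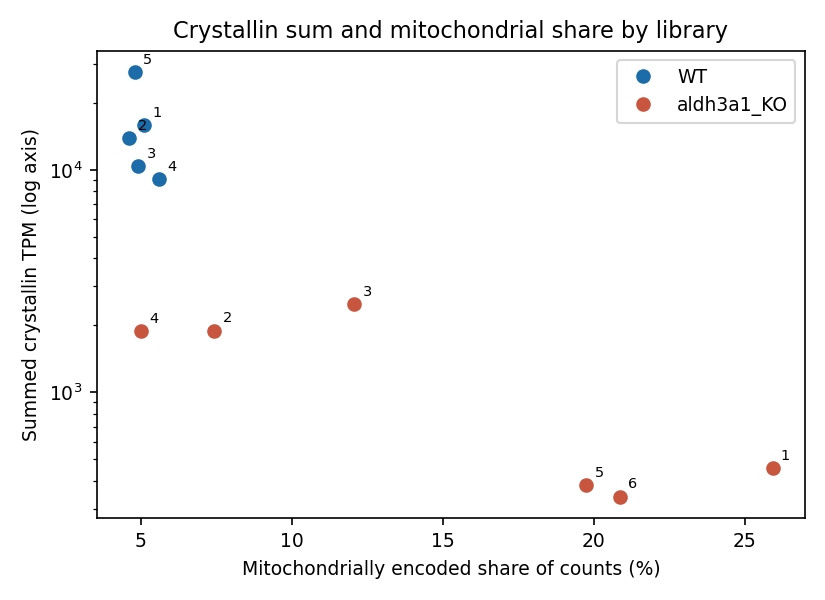
Summed crystallin TPM (log axis) against the mitochondrially encoded share of counts (%), 1 point per library with its replicate number. The 5 WT points lie between 9054 and 27545 TPM at shares of 4.63 to 5.62%, and the aldh3a1_KO points form a set at 1883 to 2490 TPM and a set at 339 to 456 TPM.

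Of the 57 genes, 40 had enough counts for the test across all genes, and 36 of them fell in aldh3a1_KO while 2 rose (edgeR quasi-likelihood test, adjusted p under 0.05 over 22182 genes). Of the 2, crygm4 passed the filter for the test only through the aldh3a1_KO libraries. Among the 36, crygmxl1, with 10 counts in aldh3a1_KO, passed it only through the WT libraries. Over all genes tested, 29.3% fell and 26.0% rose, 55.3% in all. Of all changed genes 47% were higher with TMM scaling of the counts and 35.5% on log2(TPM + 1), where 36 crystallins were lower and 1 was higher. The median log2 fold change was -3.33 over the 40 crystallins and -0.12 over all genes, so the crystallin median lay 3.21 below it. The groups did not overlap for 33 of the 40 crystallins, all lower in aldh3a1_KO, against 20.0% of all genes tested. Of the 40, 20 were crygm2d copies, which share reads, so these counts are not of independent genes. Without aldh3a1_KO 1, 5 and 6, the filter was applied anew, and 40 crystallins, not all of them the same genes, were tested. Of those, 34 fell, with a median of -2.64.

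Some markers of other tissues differed between the genotypes as well. The summed TPM of 4 lens markers was 244 to 448 in WT and 7.63 to 69.2 in aldh3a1_KO, and 3 of the 4 fell. Skin markers went from 3809 to 6940 TPM in WT to 871 to 1481 TPM in aldh3a1_KO, and 2 of 2 fell, as did 2 of 2 notochord markers (15.8 to 27.6 against 3.27 to 5.44 TPM). Of 3 neuron markers 2 rose, with sums of 407 to 526 TPM in WT and 712 to 1691 TPM in aldh3a1_KO. The sums overlapped for muscle (2 of 3 fell), blood (2 of 3 fell), retina (2 of 5 fell) and liver (0 of 2 passed). Over all genes tested 29.3% fell and 26.0% rose, and counts in sets this small cannot be told from those shares. The part of tissue composition in the crystallin difference was not tested.

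Of the tested members, the 4 that did not fall (cryabb, cryba1l2, crygm4 and crygs2) had WT means of 20.5 TPM or less. Of the 12 tested members with a WT mean under 100 TPM, 8 fell. These levels are a description, since a limit on the WT level favours genes that are lower in aldh3a1_KO.

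**Figure D2:**
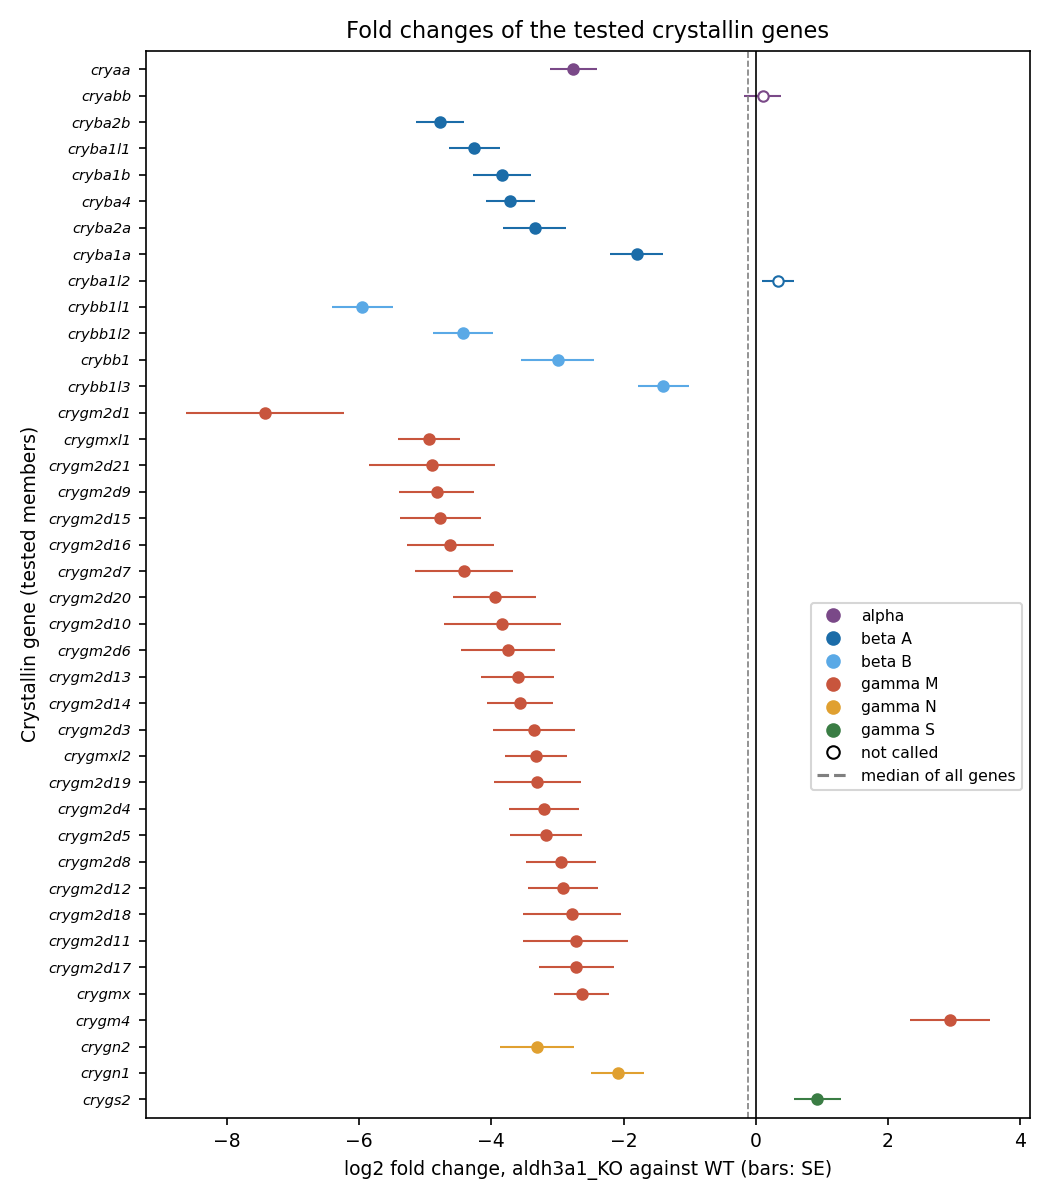
Log2 fold change (aldh3a1_KO against WT, bars are SE) of the 40 tested crystallin genes, coloured by class, with open points for the 2 that were not called and a dashed line at the median of all genes. The points run from -7.43 for crygm2d1 to 2.93 for crygm4, and 36 of them lie at -1.40 or lower.

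Alpha transcripts were a small part of the crystallin pool, at 0.170% ± 0.0376 of crystallin TPM (SD, n = 5) in WT and 0.474% ± 0.208 (SD, n = 6) in aldh3a1_KO. The gene for alpha A crystallin, cryaa, a chaperone of the lens, was at 22.8, 27.9, 20.3, 11.7 and 37.0 TPM in WT and at 1.45, 3.71, 6.14, 5.14, 1.51 and 1.33 TPM in aldh3a1_KO. The groups did not overlap, and cryaa fell (log2 fold change -2.76 ± 0.36 SE, edgeR adjusted p = 4.29e-05). Its counts and those of cryabb lay more than 0.01 from a whole number in 10 of 11 libraries each, as happens where kallisto divides reads between genes.

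The duplicated alpha B genes did not share this pattern. The gene cryabb was at 1.04, 1.62, 1.29, 0.897 and 1.05 TPM in WT and at 0.883, 0.829, 1.19, 1.59, 0.601 and 0.514 TPM in aldh3a1_KO, with overlapping groups. Its log2 fold change was 0.10 ± 0.27 (edgeR adjusted p = 0.765), and -0.19 on log2(TPM + 1). The other copy, cryaba, had 1 count over the WT libraries and 12 over the aldh3a1_KO libraries, too few for the test. That is a ratio of 16.2, higher in aldh3a1_KO, with a 95% interval of 2.4 to 694 that covers counting error only. Of the 12 counts, 6 were in aldh3a1_KO 5, and without that library the ratio was 9.14 (1.11 to 420). Of the 10 tested genes for other small heat shock proteins and the associated hspbap1, 3 fell and 1 rose, against 29.3% and 26.0% of all genes tested.

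The 13 beta crystallin genes held a large part of the crystallin transcripts. Beta A genes took 30.9% ± 3.48 of crystallin TPM in WT and 27.3% ± 8.0 in aldh3a1_KO, and beta B genes 17.4% ± 3.56 and 15.3% ± 2.86 (SD, n = 5 and 6). Of the 11 beta genes tested, 10 fell and 0 rose. The beta A median was -3.71 over 7 genes and the beta B median -3.71 over 4 genes.

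The most abundant beta A gene, cryba4, was at 1462, 1290, 1005, 773 and 2149 TPM in WT and at 61.9, 128, 151, 132, 29.4 and 34.6 TPM in aldh3a1_KO (log2 fold change -3.71 ± 0.37 SE, edgeR adjusted p = 1.35e-05). WT 5 was the highest and WT 4 the lowest of its group, and the groups were far apart. The gene cryba1l1 was at 1131, 1005, 727, 676 and 1500 TPM in WT and at 31.6, 58.9, 81.1, 84.4, 16.8 and 17.2 TPM in aldh3a1_KO (-4.26 ± 0.39). For cryba1b the WT values were 964, 939, 783, 386 and 1330 TPM and the aldh3a1_KO values 32.1, 71.9, 110.9, 90.8, 19.2 and 16.3 TPM (-3.84 ± 0.44). Both showed the same order of libraries as cryba4 at the ends of the WT group.

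Of the acidic beta A2 pair, cryba2b was at 1011, 888, 629, 629 and 1172 TPM in WT and at 17.8, 36.5, 41.5, 33.6, 13.03 and 8.77 TPM in aldh3a1_KO (-4.78 ± 0.36, edgeR adjusted p = 3.46e-06). Its duplicate cryba2a had a log2 fold change of -3.34 ± 0.48. The groups did not overlap for either gene, and the difference between the duplicates was not tested. At a lower level, cryba1a fell from 5.45 ± 0.947 TPM in WT to 1.42 ± 0.963 TPM in aldh3a1_KO (SD, n = 5 and 6), a log2 fold change of -1.80 ± 0.40 (edgeR adjusted p = 0.00185).

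One beta A gene, cryba1l2, did not pass the test. It was at 27.2, 23.1, 17.6, 12.6 and 22.1 TPM in WT and at 21.6, 16.3, 33.5, 22.2, 27.3 and 13.8 TPM in aldh3a1_KO, and the groups overlapped widely. The log2 fold change was 0.34 ± 0.24 (edgeR adjusted p = 0.239). Its estimated counts were not whole in 10 of 11 libraries. Of the 13 beta genes, 2 had such counts in any library, the other being cryba4 with 3 libraries.

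Among the basic beta B genes, crybb1 was at 1381, 1277, 973, 738 and 2093 TPM in WT and at 61.1, 217, 317, 270, 27.8 and 27.6 TPM in aldh3a1_KO (log2 fold change -3.00 ± 0.55 SE, edgeR adjusted p = 0.000483). The gap between the aldh3a1_KO sets was wide in this gene. The gene crybb1l2 was at 845, 847, 627, 420 and 1086 TPM in WT and at 12.3, 45.2, 68.4, 52.3, 13.2 and 8.61 TPM in aldh3a1_KO (-4.43 ± 0.46). For crybb1l3, at 10.7, 10.04, 7.42, 8.05 and 8.0 TPM in WT and 4.66, 2.75, 4.19, 3.88, 1.37 and 0.538 TPM in aldh3a1_KO, the log2 fold change was -1.40 ± 0.39 (edgeR adjusted p = 0.00726). The groups did not overlap for these 3 genes.

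The gene crybb1l1 had another order of WT libraries than cryba4, cryba1l1, cryba1b and crybb1. It was at 539, 644, 649, 102 and 563 TPM in WT and at 7.36, 5.23, 13.5, 8.17, 3.59 and 3.85 TPM in aldh3a1_KO. WT 4 stood apart below the other WT libraries, yet still above every aldh3a1_KO library. Its log2 fold change was -5.95 ± 0.46 (edgeR adjusted p = 3.85e-06). The remaining beta B genes, crybb2 and crybb3, had 68 and 35 counts in WT and 6 and 41 in aldh3a1_KO, too few for the test. Of the 68 counts of crybb2, 42 were in WT 5. Mean TMM-scaled CPM was 0.660 in WT and 0.0857 in aldh3a1_KO for crybb2, and 0.346 and 0.590 for crybb3. The groups overlapped for both.

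A search for all neighbouring beta A and beta B genes was not made. In 4 pairs picked for a look, both genes lie side by side in the order of protein-coding genes on the RefSeq assembly GRCz12tu. Of these pairs, cryba1l1 and crybb1l1, cryba1a and crybb1l3, and cryba4 and crybb1 fell together. In the remaining pair, crybb1l2 fell while its neighbour cryba1l2 did not pass the test. The overlap of cryba1l2 between genotypes stood beside a lowest WT value of 420 TPM and a highest aldh3a1_KO value of 68.4 TPM for crybb1l2.

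**Figure D3:**
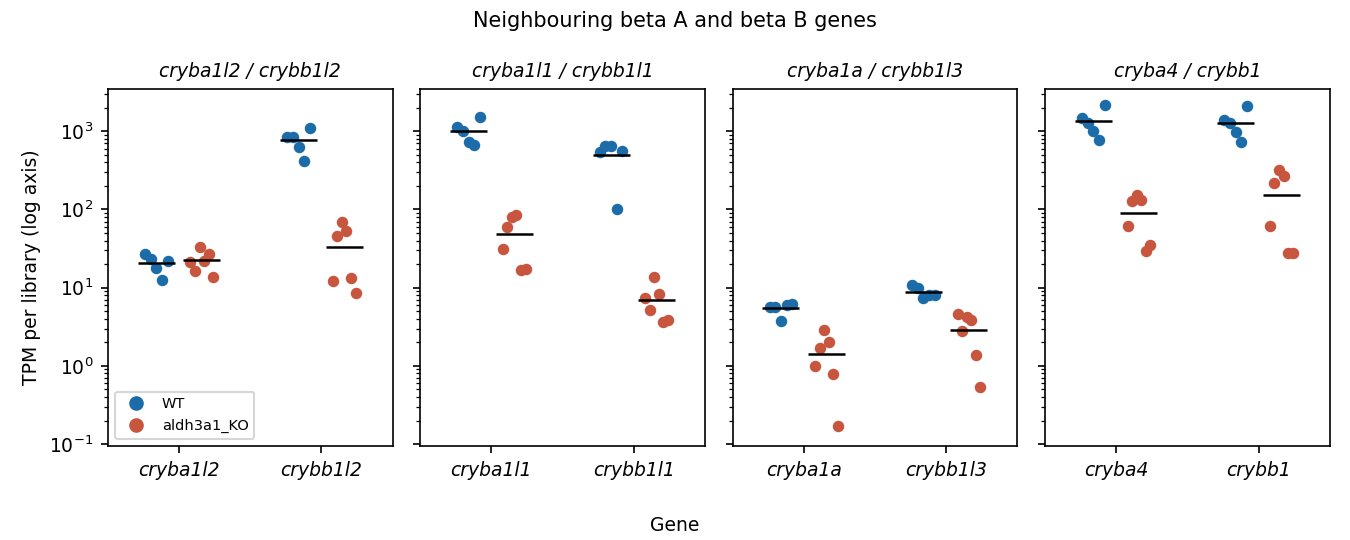
TPM per library (log axis) of 4 neighbouring pairs of beta A and beta B genes, with 5 WT and 6 aldh3a1_KO points per gene and a line at each mean. The groups are apart in 7 of the 8 genes and overlap in cryba1l2, and WT 4 is the low point of crybb1l1 at 102 TPM.

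Gamma M genes were the largest class, with 47.6% ± 6.98 of crystallin TPM (SD, n = 5) in WT and 52.0% ± 9.12 (SD, n = 6) in aldh3a1_KO. Their summed TPM was 7316, 5898, 4221, 4612 and 15946 in WT and 161, 1158, 1449, 1006, 187 and 185 in aldh3a1_KO, without overlap. Of 35 genes 24 were tested, of which 23 fell and 1 rose, with a median log2 fold change of -3.46. Without aldh3a1_KO 1, 5 and 6 the difference of mean log2 sums was -2.46, against -3.59 with them.

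The series of 21 genes named crygm2d1 to crygm2d21 supplied most of it, 36.2 to 53.8% of all crystallin TPM across the WT libraries. All 21 lie in an unbroken run of protein-coding genes in the RefSeq order. Their copies share reads: 19 of the 21 had counts that were not whole in at least 6 libraries, so the division of counts between copies is uncertain. All 20 copies tested fell, with log2 fold changes from -7.43 to -2.71 and a median of -3.58.

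Of the 4 most abundant gamma M genes, all of them crygm2d copies, crygm2d8 was at 1133, 988, 653, 681 and 1460 TPM in WT and at 20.7, 203, 261, 155, 29.2 and 42.9 TPM in aldh3a1_KO (-2.94 ± 0.53 SE, edgeR adjusted p = 0.000435). The gene crygm2d19 was at 936, 891, 665, 441 and 1461 TPM in WT and at 17.4, 165, 172, 123, 7.28 and 17.0 TPM in aldh3a1_KO (-3.30 ± 0.66). For crygm2d13 the values were 937, 742, 555, 496 and 1566 TPM in WT and 14.3, 110.2, 144, 88.9, 23.8 and 13.8 TPM in aldh3a1_KO (-3.60 ± 0.56). None of these groups overlapped, and aldh3a1_KO 2, 3 and 4 were the high libraries each time. In crygm2d17, at 818, 673, 461, 660 and 937 TPM in WT and 13.2, 183, 229, 130.2, 22.6 and 29.2 TPM in aldh3a1_KO (-2.71 ± 0.57), the same held.

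Because reads can be divided between copies, the 21 crygm2d genes were also summed before the fit across all genes. The summed TPM was 6623, 5279, 3774, 4186 and 14822 in WT and 126, 1052, 1301, 894, 157 and 162 in aldh3a1_KO. The sum fell by 3.41 ± 0.60 on the log2 scale (SE, edgeR adjusted p = 0.000336). It was -2.93 without WT 5 and -2.63 without aldh3a1_KO 1, 5 and 6, and it passed the test in both. With the copies as 1 entry, 17 of 21 tested crystallin entries fell.

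The ratio of WT 5 to the other WT libraries differed from copy to copy. In crygm2d1 the WT values were 39.8, 35.2, 19.7, 17.6 and 671 TPM. On 28.8 counts in all, its aldh3a1_KO values were 0.153, 1.61, 1.87, 0.721, 0.468 and 0. Its log2 fold change of -7.43 ± 1.19, the most negative among the crystallins tested, was -4.95 without WT 5 (edgeR adjusted p = 5.16e-05), and the groups did not overlap with or without it. Similarly, crygm2d21 was at 388 TPM in WT 5 against 20.04 to 34.2 TPM in the other WT libraries (-4.89 ± 0.95, and -2.99 without WT 5). The gene crygm2d10 was at 1948 TPM in WT 5 against 85.3 to 304 TPM (-3.84 ± 0.89, and -2.35 without WT 5).

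In crygm2d2 the signal came from WT 5 alone. It had 3859 counts in WT 5, at most 2.2 in any other WT library and 0 over the aldh3a1_KO libraries, where the floor is 3 counts over the group. That is at least 952-fold lower in aldh3a1_KO with WT 5 and at least 1.03-fold without it, and the gene did not pass the filter for the test. The ratio of the WT 5 value to the median of the other WT libraries ran from 1.40 for crygm2d17 to 24.5 for crygm2d1 over the other 20 copies, with a median of 3.12. Over the 11 other crystallins with a WT mean of at least 100 TPM that ratio ran from 0.952 to 2.13, and 16 of the 20 copies lay above its upper end. The copies themselves were taken at any level. A high WT 5 value was not confined to them, since crygn1, below that limit, was at 14.04 TPM in WT 5 against 4.06 to 7.75 TPM.

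Leaving out WT 5 moved the fold change of 9 crygm2d copies by over 1.5 times, and all 9 still passed. Besides the 3 above, the log2 fold change without WT 5 was -1.85 for crygm2d11 (adjusted p = 0.0455), -3.79 for crygm2d16, -1.38 for crygm2d18 (adjusted p = 0.0339), -2.69 for crygm2d3, -2.60 for crygm2d6 and -3.62 for crygm2d7. With all libraries these were -2.73, -4.62, -2.78, -3.36, -3.75 and -4.42. The genotype groups overlapped for crygm2d10, crygm2d11 and crygm2d18 among the 20 copies tested. Without aldh3a1_KO 1, 5 and 6 these 3 no longer passed, with edgeR adjusted p of 0.0565, 0.0798 and 0.117. With the quality weights of limma voom crygm2d11 (adjusted p = 0.10) and crygm2d18 (0.0771) did not pass, nor did crygm2d10 (0.103) and crygm2d18 (0.145) with the replicate number as a block.

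**Figure D4:**
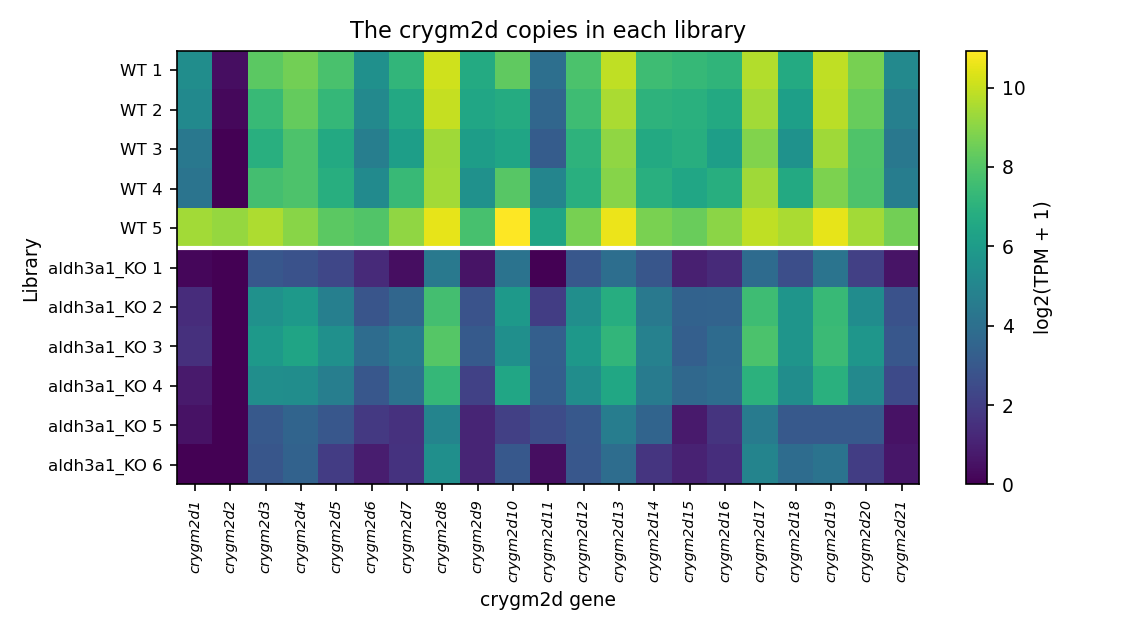
Log2(TPM + 1) of the 21 crygm2d genes (columns) in each library (rows), with a white line between the genotypes. WT 5 is the brightest row, most visibly in crygm2d1, crygm2d2, crygm2d10 and crygm2d21, and aldh3a1_KO 1, 5 and 6 are darker than aldh3a1_KO 2, 3 and 4.

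Outside the crygm2d run, 3 relatives named crygmx fell. The gene crygmx was at 232, 201, 148, 188 and 357 TPM in WT and at 19.4, 43.02, 67.9, 50.5, 11.9 and 8.15 TPM in aldh3a1_KO (log2 fold change -2.63 ± 0.41 SE, edgeR adjusted p = 0.000141). Its relative crygmxl2 went from 426 ± 199 to 39.5 ± 29.6 TPM (-3.32 ± 0.47) and crygmxl1 from 6.52 ± 2.48 to 0.177 ± 0.127 TPM (-4.94 ± 0.47; SD, n = 5 and 6). The values of crygmxl1 rest on 436 counts in WT and 10 in aldh3a1_KO. It entered the test only through WT, the group where it is high, so its call is not support for a fall. All counts of the 3 genes were whole, which gives no sign that reads were divided with other genes but does not exclude it. The groups did not overlap for any of the 3.

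The gene crygm4 was called higher in aldh3a1_KO, at a low level. It was at 0.537, 0.428, 0.151, 0.135 and 0.267 TPM in WT and at 2.09, 0.449, 1.56, 2.13, 2.90 and 2.95 TPM in aldh3a1_KO, where aldh3a1_KO 2 lay within the WT range. These levels rest on 11 counts in WT and 61 in aldh3a1_KO (2.93 ± 0.60, edgeR adjusted p = 0.00106). It entered the test only through aldh3a1_KO, the group where it is high. Its adjusted p is therefore not support for a rise. Without any 1 of the aldh3a1_KO libraries it no longer passed the filter for the test. The other 10 gamma M genes outside the crygm2d run were not tested, each with 112 counts or fewer over all libraries. Among them, crygm5 was counted 112 times in WT, 75.6 of them in WT 5, and never in aldh3a1_KO. That is at least 27.5-fold lower in aldh3a1_KO, and at least 11.2-fold without WT 5, with a floor of 3 counts over the group. The genes crygm1 and crygs3 had no count in any library.

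The gamma N genes fell. The more abundant, crygn2, was at 616, 582, 413, 369 and 912 TPM in WT and at 16.4, 81.3, 120.1, 92.2, 16.9 and 6.69 TPM in aldh3a1_KO (log2 fold change -3.31 ± 0.56 SE, edgeR adjusted p = 0.000275). Its duplicate crygn1 was at 7.75, 5.07, 4.06, 5.01 and 14.04 TPM in WT and at 0.989, 2.97, 1.17, 1.81, 1.09 and 0.713 TPM in aldh3a1_KO (-2.09 ± 0.40). The groups did not overlap for either gene. For the gamma N sum, the difference of mean log2 values was -3.71, and -2.48 without aldh3a1_KO 1, 5 and 6.

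The gamma S class was near the limit of detection, and its sum was higher in aldh3a1_KO on average. Of its 4 genes only 1, crygs2, was tested. Summed, it was at 2.09, 1.38, 2.09, 2.03 and 2.52 TPM in WT and at 3.73, 1.70, 5.77, 5.10, 5.57 and 5.62 TPM in aldh3a1_KO, with overlap through aldh3a1_KO 2. The gene crygs2 was at 1.96, 1.17, 1.82, 1.93 and 1.90 TPM in WT and at 1.5, 1.49, 3.97, 3.86, 3.44 and 2.94 TPM in aldh3a1_KO. It rose by 0.93 ± 0.35 on the log2 scale (edgeR adjusted p = 0.0366), on 73.5 counts in WT and 99.5 in aldh3a1_KO, and the groups overlapped. The call was lost without any 1 of the WT libraries, without aldh3a1_KO 3 or 4, and without aldh3a1_KO 1, 5 and 6 together. It was also lost on log2(TPM + 1) and log2(TPM + 0.1), with the replicate number as a block, and after every library was thinned to equal depth. Over all alternatives its edgeR, limma or DESeq2 adjusted p ran from 0.00538 to 0.114. Its counts were not whole in 6 of 11 libraries, and those of crygs4 in 8, so reads were divided with other genes.

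Of the other gamma S genes, crygs4 had 3.81 counts in WT and 51.8 in aldh3a1_KO, with 0 in aldh3a1_KO 2. That is a ratio of 18.4, higher in aldh3a1_KO, with a 95% counting interval of 6.47 to 67.0, and it was not tested. The gene crygs1 had 8 and 4 counts.

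**Figure D5:**
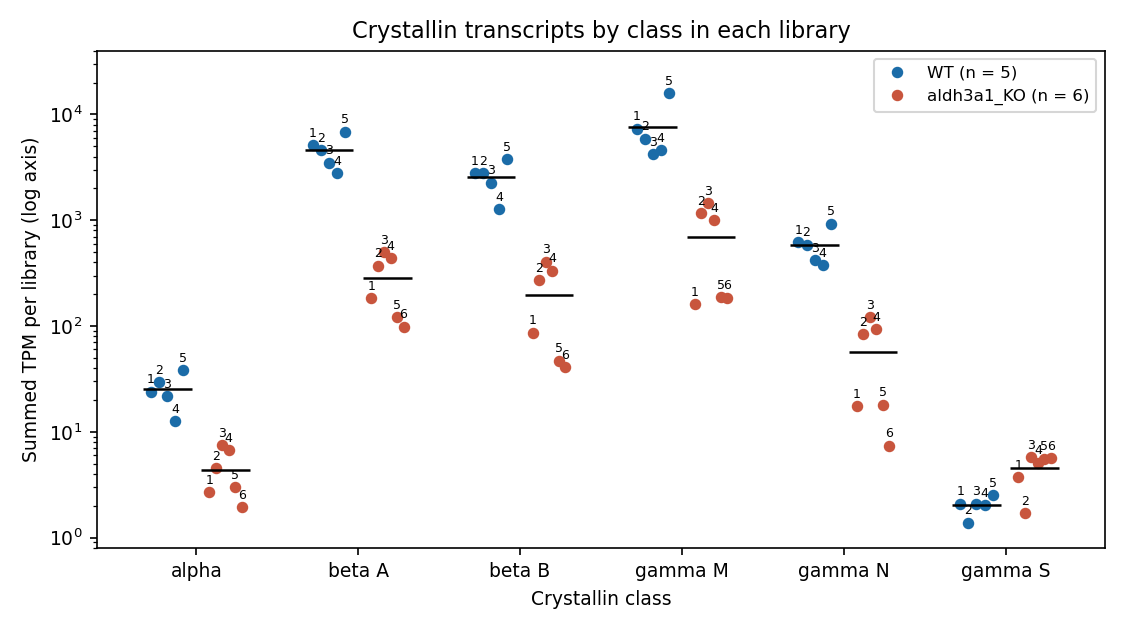
Summed TPM per library (log axis) for each crystallin class, with the replicate number above each point and a line at each group's mean. The groups are apart in the alpha, beta A, beta B, gamma M and gamma N classes and overlap in gamma S, where 5 of the 6 aldh3a1_KO points lie above the WT points.

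The shares of beta A, beta B, gamma M and gamma N in crystallin TPM overlapped between genotypes. Those of alpha and gamma S were higher in every aldh3a1_KO library than in every WT library, at 0.240 to 0.781% against 0.138 to 0.213% for alpha, and 0.0900 to 1.66% against 0.00915 to 0.0224% for gamma S. These shares are descriptions without a test, and they depend on the sums of the larger classes.

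The order of libraries was shared by most members. On the CPM scale, WT 5 had the highest WT value in 33 of the 36 genes that fell, against 22.6% of all genes tested. The lowest WT value was in WT 3 for 25 and in WT 4 for 11 of them by CPM, but in WT 3 for 17 and in WT 4 for 19 by TPM. In 32 of the 36, by CPM, aldh3a1_KO 2, 3 and 4 were all above aldh3a1_KO 1, 5 and 6, against 15.5% of all genes tested. The members share libraries, so these counts are not independent of one another.

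Other lens genes give the setting of these values. Of 38 further lens genes found in the files, 36 were tested, of which 17 fell and 2 rose, with a median log2 fold change of -0.87. The shares over all genes tested were 29.3% and 26.0%. Some of the listed genes are expressed in other tissues too, so the median of -0.87 is not that of the lens alone. Among those that fell were the fibre membrane genes mipb (-3.42 ± 0.51), a lens water channel, and lim2.4 (-3.01 ± 0.49), and bfsp2 (-3.50 ± 0.41), which encodes a filament protein of lens fibres. Of the listed fibre connexin genes, gja8b (-4.57 ± 0.35) and gja8a (-2.09 ± 0.42) fell and gja3 rose (0.71 ± 0.23, edgeR adjusted p = 0.0199). The gene mipa (-0.99 ± 0.40, edgeR adjusted p = 0.0515), the duplicate of mipb, and lim2.2 (0.52 ± 0.52) did not pass. The lens regulator genes pitx3 (0.41 ± 0.18, edgeR adjusted p = 0.0686) and prox1a (0.82 ± 0.34, edgeR adjusted p = 0.0548) did not pass, while hsf4 (-2.37 ± 0.45) and foxe3 (-1.38 ± 0.43) fell. The gene pax6a, which other parts of the eye and brain express as well, rose (1.21 ± 0.17). Its duplicate pax6b fell (-0.58 ± 0.22, edgeR adjusted p = 0.0407). Of the 4 genes found with a beta gamma crystallin domain outside the lens families, 3 were tested and 1, crybg1a, fell (-2.37 ± 0.77, adjusted p = 0.0180).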

How the data were processed

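RNA from 11 libraries was sequenced on the BGISEQ platform and, per the submitters' processing notes, reads were trimmed with Trim Galore 0.6.4 and quantified with kallisto (version given as 0.4.6) against danRer11. The authors deposited expected counts per gene, which are estimated counts, and TPM per gene, scaled for length and depth. Symbols for 25812 of the 30243 Entrez identifiers came from RefSeq's gene list for GRCz12tu, which served for names and gene order only. Members and lists were chosen with earlier results of these data known.

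Estimated counts were rounded, filtered with filterByExpr, scaled by TMM and tested with edgeR's robust quasi-likelihood F test (two-sided, Benjamini-Hochberg adjustment over 22182 genes, threshold 0.05), with R 4.3.3, edgeR 4.0.16 and limma 3.58.1. The SE was taken from the F statistic. TMM left the median gene at -0.12. Sums over classes were not tested. Named genes are the 4 per class with the highest mean TPM over all libraries, every member that rose, the most negative, and tested members that did not pass; others are named for their counts or position, after their values were seen. A floor of 3 counts stands for a group at 0, and intervals and floors cover counting error only. Protein sequences were not used here, so copies were joined by symbol instead of by identity. Each choice was changed in turn: size factors or the Wald test of DESeq2 1.42.0, scaling by the upper quartile, 2 other filters, voom weights in limma, limma fits of log2-transformed TPM with pseudocounts of 1 and 0.1, a block for replicate number, and each library left out. The main fit was also run on simulated counts with a fixed dispersion and few changed genes. That setting is simpler than these data, so it does not check the calls made here. Python 3.11.15 (pandas 2.3.3, numpy 2.4.6, scipy 1.17.1) made the tables and matplotlib 3.10.9 the plots.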

Additional observations from a re-analysis of the deposited data

Results flagged for a closer look

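A single library far from its group was looked for with Dixon's test of gap over range, taken on log2(CPM + 0.5) of rounded counts in both genotypes, for the 55 members with a count and 7 sums. Of these 124 groups 11 stood out. The limit used gives about 1 in 20 for independent normal values, and these groups are not independent, so the rates cannot be compared. Copies share reads and the sums share members. A group with counts in only 1 library always stands out, as for cryaba, crygm2b, crygm6 and crygm7. In WT 5, crygm2d1 was at 273 CPM against 7.30 to 16.9 in the other WT libraries, crygm2d2 at 184 CPM against 0 to 0.10, and crygm2d21 at 288 CPM against 13.7 to 26.6. In WT 4, crybb1l1 was at 94.5 CPM against 505 to 549.7. In aldh3a1_KO 2, crygn1 was at 2.01 CPM against 0.651 to 1.04. In WT 3, cryaba was at 0.0493 CPM, which is its single WT count. In the same library cryba1a was at 2.61 CPM against 4.11 to 4.64. The others rest on 4 counts or fewer in aldh3a1_KO libraries: crygm2b at 0.372 CPM in aldh3a1_KO 6, crygm2e at 0.195 CPM in aldh3a1_KO 4, crygm6 at 0.161 CPM in aldh3a1_KO 3 and crygm7 at 0.238 CPM in aldh3a1_KO 5.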

How the results depend on the processing

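The count of 36 crystallins that fell stood at 34 to 40 under the alternatives run, with 36 without any single library. The number tested varied too, from 38 to 55, and the 40 were of 55 tested on log2(TPM + 1) without a filter. With the crygm2d copies summed the count was 17 of 21, where fewer entries are tested. The summed copies gave a log2 fold change of -3.72 to -2.93 when 1 library was left out. The count that rose was 4 with the DESeq2 Wald test and without a filter, 1 on log2(TPM + 1) and log2(TPM + 0.1), 0 at 1 CPM in 5 samples, with the replicate block, thinned to the smallest library and without aldh3a1_KO 1, 5 and 6, and 0 to 2 when 1 library was left out. At 1 CPM crygm4 and crygs2 were not among the genes tested. With the replicate block crygm4 was not tested and crygs2 did not pass (edgeR adjusted p = 0.0742). On log2(TPM + 1) and log2(TPM + 0.1) crygs2 did not pass (limma adjusted p = 0.0947 and 0.111). The cause in the other settings was not tested. The changed genes of the whole table numbered 11034 to 12505 without 1 library. Without aldh3a1_KO 1, 5 and 6 the differences of log2 sums were -2.98 for beta B, -2.46 for gamma M, -2.48 for gamma N and -2.80 for all, against -4.01, -3.59, -3.71 and -3.70. When 1 library was left out they ran from -4.28 to -3.73, -3.87 to -3.28, -4.01 to -3.31 and -3.94 to -3.48. The gene cryabb turned to -0.19 on log2(TPM + 1), with or without a filter, and to -0.37 on log2(TPM + 0.1). Of 907 values of single genes under alternatives, 884 kept direction and call, 20 lost the call and 3 turned. Genes without an adjusted p in a setting are not among these values, such as crygm2d1 and crygm2d21 with the DESeq2 Wald test. The replicate block, which also leaves out the unmatched aldh3a1_KO 6, gave 34 of 39 crystallins lower. Same-numbered libraries correlated at 0.0109 to 0.154, not over 0.1 in every pair, and were not treated as paired. The alternatives that leave out aldh3a1_KO 1, 5 and 6, thin the libraries or sum the copies by symbol were chosen after seeing the data. Joining copies at 90%, 95% or 99% identity was not run. The 17 members that did not pass the filter were not tested, and the calls of crygm4 and crygs2 rest on 11 and 73.5 counts in WT. Of these, crygm4 passed the filter only through the aldh3a1_KO libraries, where it is high. Among the 36 that fell, crygmxl1 passed it only through the WT libraries, where it is high.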
